A study of Mus musculus with 4 samples.

Results

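Interleukin-1 signalling and the inflammasome were examined through 10 genes, chosen by name with earlier results of these data known. They were *Il1a*, *Il1b*, *Il1rn*, *Il1r1*, *Il1rap*, *Il18*, *Casp1*, *Casp4*, *Nlrp3* and *Pycard*, out of 18194 genes with a probe set that names 1 gene. These genes have 19 such probe sets among 34958, and 0 probe sets named a member together with another gene. The RNA came from the cortex of 3-month-old C57BL/6J mice, 24 h after permanent occlusion of the left middle cerebral artery (pMCAO). All mice, WT and P4htm-/- (P4H-TM deficient, labelled KO), had the occlusion, so the control was the contralateral cortex of the same operated animals and not the cortex of unoperated ones. P4H-TM is a transmembrane prolyl 4-hydroxylase that takes part in oxygen sensing, and its gene was inactivated in the whole animal. The 4 conditions were the contralateral and the ipsilateral cortex of each genotype, each with the RNA of 4 mice pooled on 1 Affymetrix mouse genome array.

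Interleukin-1α and interleukin-1β are cytokines of innate immunity that bind the same receptor, which IL1R1 forms with the accessory chain IL1RAP. IL1RN occupies that receptor without signalling and so acts as a natural antagonist. Interleukin-1β and interleukin-18 are made as inactive precursors and are cut by caspase-1 inside the inflammasome, which a sensor such as NLRP3 builds with the adaptor ASC, the product of *Pycard*, while caspase-4 (called caspase-11 in mice) responds to cytosolic lipopolysaccharide. After stroke, microglia and infiltrating leukocytes are known sources of interleukin-1β.

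Values are log2 expression values per probe set, which the authors obtained with RMA (background correction, quantile normalization and a summary of the probes of a set). No source states the base of the logarithm, and base 2 was inferred from how far the values range. A group of 81 probe sets for receptors of odorants, pheromones and bitter taste gave the background limit, 4.79, which 95% of them did not exceed. A probe set was called detected when it exceeded this limit on at least 1 array of a comparison. A difference was called higher or lower when it reached 1.5-fold, or 0.585 on the log2 scale. With 1 array per condition there is no replicate error, no p-value is given, and the precision is limited by this number. The differences of the receptor probe sets had an SD of 0.206 for WT ipsilateral minus contralateral, 0.178 for P4htm-/- ipsilateral minus contralateral, 0.175 for P4htm-/- minus WT contralateral and 0.194 for P4htm-/- minus WT ipsilateral cortex. This SD serves below as the measure of technical scatter and holds no variation between mice. The 4 array medians lay between 5.53 and 5.55. The *P4htm* probe sets differed by -1.79 to -1.58 between the P4htm-/- and WT arrays of a side, and whether they lie in the deleted sequence was not determined. All 9 neuronal markers were above background on every array. Over 9 measured markers of choroid plexus and ependyma, the summed linear level was 761 contralaterally and 17637 ipsilaterally in WT mice and 857 and 13047 in P4htm-/- mice. Nearly all of the ipsilateral sum was *Ttr* (transthyretin), without which the sums of the other 8 genes were 343 and 557 in WT mice and 334 and 457 in P4htm-/- mice.

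Of the 19 probe sets, 8 were above background on all 4 arrays, 1 on 3 arrays and 10 on none. By gene, 6 members were measured on every array, *Il1b* on 3 arrays, and *Il1a*, *Il1rn* and *Casp4* on none. The array therefore gave no measured level for interleukin-1α, for the receptor antagonist or for caspase-4 in any condition. *Il1a* had values of 3.56 contralaterally and 3.85 ipsilaterally in WT mice and 3.65 and 3.62 in P4htm-/- mice. *Casp4* had 3.92 and 4.29 in WT mice and 3.97 and 4.33 in P4htm-/- mice. The 3 probe sets of *Il1rn* lay between 3.68 and 4.56, and their highest values came from different conditions, 4.56 in P4htm-/- ipsilateral cortex for the first and 4.38 and 4.07 in WT ipsilateral cortex for the others. Of the other undetected probe sets, 1 belongs to *Il1r1*, 2 to *Il1rap* and 2 to *Pycard*, genes that were measured through another probe set.

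**Figure D1:**
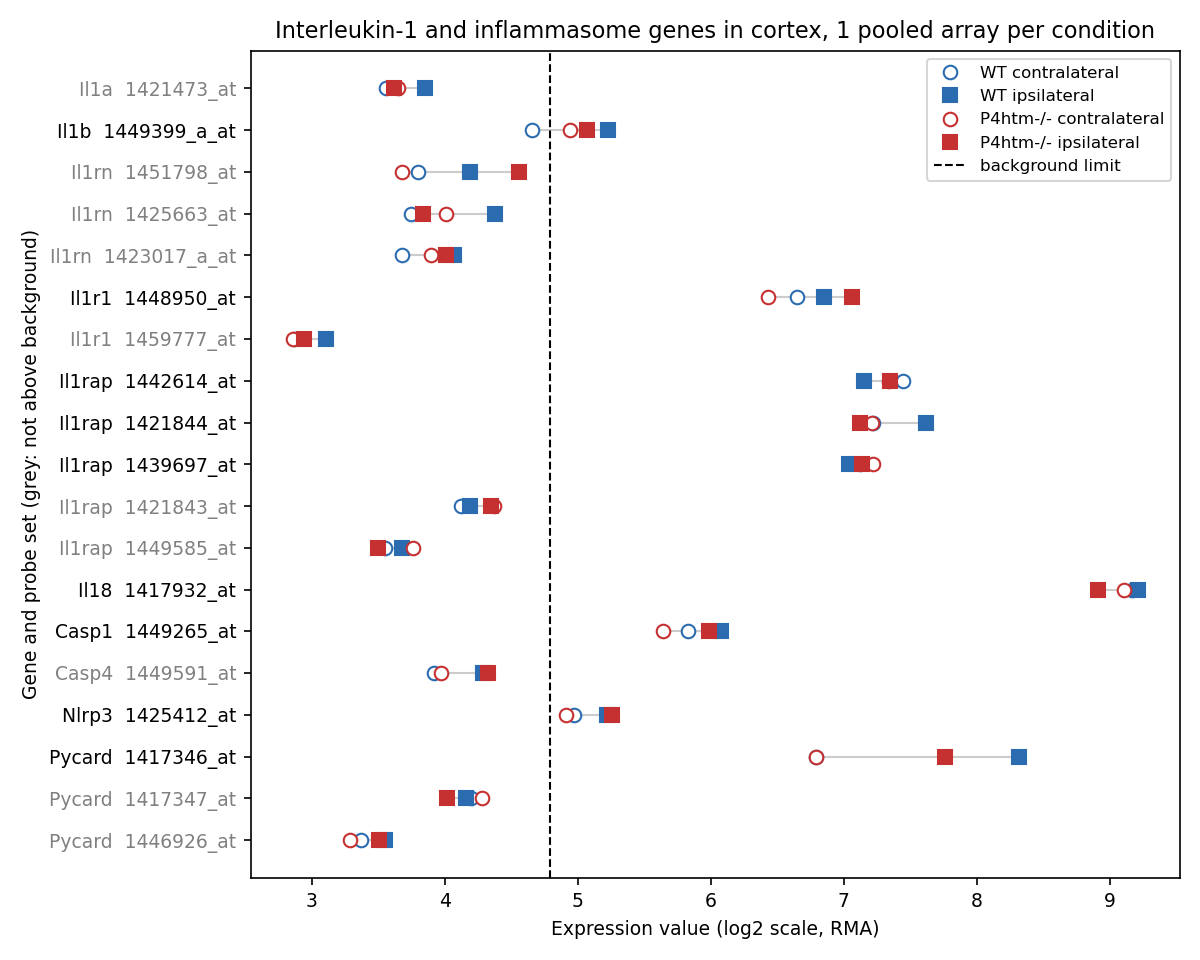
Expression values (horizontal axis, log2 scale) of the 19 probe sets of the 10 genes, with WT in blue, P4htm-/- in red, 1 pooled array per symbol, and circles (open) and squares (filled) for the contralateral and the ipsilateral side. Probe sets with grey names stay left of the dashed background limit of 4.79 on all arrays, and *Pycard* shows the widest spread, from 6.79 to 8.32.

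*Pycard*, which encodes the adaptor ASC that links inflammasome sensors to caspase-1, had the largest differences of all members between the injured and the uninjured side. Its detected probe set 1417346_at read 6.79 in WT contralateral, 8.32 in WT ipsilateral, 6.79 in P4htm-/- contralateral and 7.76 in P4htm-/- ipsilateral cortex. Both contralateral arrays gave the same value, and both ipsilateral arrays lay above them, with WT the higher. The ipsilateral minus contralateral difference was 1.53 in WT (2.89-fold) and 0.97 in P4htm-/- cortex (1.96-fold). Of all probe sets tested, 63 of 23603 had a higher difference in WT and 108 of 23613 in P4htm-/- cortex. The other probe sets of the gene, 1417347_at and 1446926_at, were not above background on any array, so the difference rests on 1 probe set. The mean over all 3 probe sets, undetected ones included, gave differences of 0.56 in WT mice and 0.31 in P4htm-/- mice, both under 1.5-fold.

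*Pycard* lies on chromosome 7, at 127991373 to 127993867 in GRCm38.p6. The RefSeq window from 250 bases before to 50 bases after its start, at chr7:127993818-127994117 on the minus strand, is shown because this gene passed 1.5-fold in both genotypes, with motif matches in capitals.
Pycard: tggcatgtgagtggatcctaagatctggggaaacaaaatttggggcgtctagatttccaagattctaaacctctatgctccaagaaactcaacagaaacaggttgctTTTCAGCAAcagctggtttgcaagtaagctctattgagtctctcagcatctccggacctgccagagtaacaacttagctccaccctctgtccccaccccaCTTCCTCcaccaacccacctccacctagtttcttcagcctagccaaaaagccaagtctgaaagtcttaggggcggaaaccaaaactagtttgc
The first capitals are a match to the C/EBP motif TTGCNNNAA, 143 bases before the start, and the second one to the PU.1 core GAGGAAG, 43 bases before it, both read on the opposite strand. C/EBP factors and PU.1 are transcription factors of myeloid cells. Among 32851 windows of this length, 9.56% held the first motif and 13.6% the second on either strand, so a match is a description and not a binding site.

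The summed levels of myeloid markers were also higher on the ipsilateral side. Of 15 microglia markers, 14 were measured and all 14 were above background, with a summed linear level of 8107 contralaterally and 9546 ipsilaterally in WT mice and 7499 and 8729 in P4htm-/- mice. The largest ipsilateral difference among them was 1.0 for *Cd68*, a lysosomal protein of phagocytes, in WT, where P4htm-/- cortex had 0.56, and 0.77 for *Fcrls* in P4htm-/- cortex, where WT had 0.74. *P2ry12* and *Tmem119*, markers of resting microglia, had ipsilateral differences of -0.38 and 0.03 in WT mice and -0.39 and 0.04 in P4htm-/- mice. Of 11 measured monocyte and macrophage markers, 7 were detected and *Ccr2*, *Chil3*, *Plac8* and *Cd5l* were not above background, and the summed level was 574 and 932 in WT mice and 604 and 891 in P4htm-/- mice. *Lyz2*, a lysozyme of myeloid cells, had a difference of 1.26 in WT mice and 1.07 in P4htm-/- mice, and without it the sums were 412 and 544 and 442 and 551. *Arg1*, an arginase of alternatively activated macrophages, was below background on both contralateral arrays, and its difference was at least 0.97 in WT mice and at least 0.87 in P4htm-/- mice. Of 10 measured neutrophil markers 5 were detected, while *Mpo*, *Elane*, *Camp*, *Cxcr2* and *Mmp8* were not above background. The summed level of all 10 was 247 and 476 in WT mice and 299 and 559 in P4htm-/- mice. Most of the difference between the sides came from *S100a8* and *S100a9*, the subunits of calprotectin, which were higher by at least 2.41 and 1.95 in WT mice and by 2.34 and 1.57 in P4htm-/- mice. Without these genes the sums were 201 and 222 in WT mice and 219 and 238 in P4htm-/- mice. *Ltf* (lactoferrin) differed by 0.15 and -0.06, and *Csf3r*, the receptor for granulocyte colony-stimulating factor, by 0.10 and 0.14. The part of these cells in the difference of *Pycard* was not tested. In bulk tissue, fewer cells of a type and less RNA per cell cannot be told apart.

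The genes whose 4 values were nearest to those of *Pycard*, each centred on its own mean, were *Scgb3a1*, *Ccl6* and *Clec7a*, at Euclidean distances of 0.083, 0.105 and 0.149 over 4 arrays among 13428 detected genes. *Clec7a*, the β-glucan receptor Dectin-1 of myeloid cells, read 5.0 and 6.33 in WT mice and 4.94 and 5.92 in P4htm-/- mice. *Ccl6*, a CC chemokine, read 5.85 and 7.42 in WT mice and 5.96 and 6.79 in P4htm-/- mice. *Scgb3a1*, the nearest, read 5.56 and 7.18 in WT mice and 5.62 and 6.64 in P4htm-/- mice. These genes were picked for a pattern like that of *Pycard*, so their higher WT ipsilateral value follows from that choice.

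*Il1r1*, the signalling receptor for interleukin-1, was the other member past 1.5-fold, in P4htm-/- cortex. Its probe set 1448950_at read 6.65 in WT contralateral, 6.85 in WT ipsilateral, 6.43 in P4htm-/- contralateral and 7.06 in P4htm-/- ipsilateral cortex. Both ipsilateral arrays lay above both contralateral ones, and the P4htm-/- arrays held the lowest and the highest value. The ipsilateral difference was 0.63 in P4htm-/- cortex, just inside the threshold, and 0.20 in WT, which is within 1 SD of the receptor probe sets. The second probe set, 1459777_at, lay between 2.86 and 3.11, and the mean of both gave 0.36 in P4htm-/- cortex. Nearest to its pattern were *Gem*, *Herc6* and *Apobec1*, at distances of 0.037, 0.059 and 0.064.

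RefSeq gives 2 start windows for *Il1r1* on the plus strand of chromosome 1, chr1:40224830-40225129 and chr1:40266336-40266635. They are shown in that order to set the windows of the receptor gene beside each other, with matches to the searched motifs in capitals.
Il1r1 upstream start: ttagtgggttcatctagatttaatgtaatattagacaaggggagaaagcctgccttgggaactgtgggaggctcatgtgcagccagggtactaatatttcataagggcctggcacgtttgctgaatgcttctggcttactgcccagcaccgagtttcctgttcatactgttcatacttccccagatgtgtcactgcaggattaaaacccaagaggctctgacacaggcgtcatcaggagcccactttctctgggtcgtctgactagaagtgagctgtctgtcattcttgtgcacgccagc
Il1r1 downstream start: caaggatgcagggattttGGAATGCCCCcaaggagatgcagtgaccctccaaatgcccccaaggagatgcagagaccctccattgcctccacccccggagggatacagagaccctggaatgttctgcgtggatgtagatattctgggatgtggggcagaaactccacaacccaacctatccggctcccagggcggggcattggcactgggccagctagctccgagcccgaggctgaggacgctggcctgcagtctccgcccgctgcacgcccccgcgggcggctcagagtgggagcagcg
Only the second window held a match, to the NF-κB consensus on the opposite strand, 232 bases before the start. NF-κB is the transcription factor that interleukin-1 receptors activate. Of all windows 8.46% held this motif. Which start these probe sets report on was not determined.

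*Il1b*, the main secreted cytokine of this group, stayed near the background limit. It read 4.66 in WT contralateral, which is below the limit, 5.23 in WT ipsilateral, 4.94 in P4htm-/- contralateral and 5.07 in P4htm-/- ipsilateral cortex. The WT ipsilateral array was the highest and the WT contralateral array the lowest, with both P4htm-/- arrays between them. With the WT contralateral value set to background, the ipsilateral difference was at least 0.44 in WT. The measured difference of 0.57 was just outside the threshold. In P4htm-/- cortex the difference was 0.13, within 1 SD of the receptor probe sets. The start window of *Il1b*, at chr2:129371090-129371389 on the minus strand, is shown for comparison with that of *Pycard*.
Il1b: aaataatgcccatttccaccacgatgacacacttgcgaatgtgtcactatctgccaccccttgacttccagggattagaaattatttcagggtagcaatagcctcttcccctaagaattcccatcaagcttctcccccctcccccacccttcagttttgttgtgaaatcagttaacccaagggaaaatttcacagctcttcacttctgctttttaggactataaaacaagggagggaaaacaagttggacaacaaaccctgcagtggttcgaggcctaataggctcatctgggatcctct
It held no match to any of the motifs searched on both strands, which were the NF-κB consensus, AP-1 (TGANTCA), STAT (TTCNNNGAA), C/EBP and the PU.1 core. All 10 members had at least 1 window in RefSeq. By gene, the NF-κB consensus was found in 3 members, *Casp4*, *Il1r1* and *Nlrp3*, against 9.55% of 27025 genes. In *Casp4* some of these matches overlap each other. AP-1 was found in *Il1a* and *Il1rn*, C/EBP in *Pycard*, the PU.1 core in *Il1a*, *Nlrp3* and *Pycard*, and STAT in 0 members. Among all genes these motifs were found in 8.97%, 10.7%, 15.4% and 9.55%.

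*Nlrp3*, the sensor, and *Casp1*, the protease, were measured on all arrays and differed little. *Nlrp3* read 4.97 and 5.22 in WT mice and 4.91 and 5.26 in P4htm-/- mice, contralateral value first. *Casp1* read 5.83 and 6.08 in WT mice and 5.64 and 5.99 in P4htm-/- mice. In both genes the ipsilateral arrays lay above the contralateral arrays, and the difference was 0.25 in WT mice and 0.35 in P4htm-/- mice. These differences exceeded 1 SD of the receptor probe sets and did not reach 1.5-fold. They lay inside the 95th percentile of the absolute receptor differences, 0.50 in WT mice and 0.39 in P4htm-/- mice. *Il18*, the other caspase-1 substrate, read 9.17 and 9.21 in WT mice and 9.11 and 8.91 in P4htm-/- mice. Its ipsilateral difference was 0.04 in WT mice and -0.20 in P4htm-/- mice, and the P4htm-/- ipsilateral array held its lowest value. *Casp1*, *Casp4* and *Il18* lie on chromosome 9, as *P4htm* does, at distances of 103.3, 103.2 and 58.0 Mb from it in GRCm38.p6.

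The 3 detected probe sets of *Il1rap*, the accessory chain of the receptor, did not move together. Probe set 1421844_at read 7.22 and 7.62 in WT mice and 7.21 and 7.12 in P4htm-/- mice, and the WT ipsilateral array stood above the other three. Probe set 1442614_at read 7.45 and 7.15 in WT mice and 7.34 and 7.35 in P4htm-/- mice, so that here the WT ipsilateral array was the lowest. Probe set 1439697_at read 7.12 and 7.04 in WT mice and 7.22 and 7.14 in P4htm-/- mice. The ipsilateral differences in WT were thus 0.40, -0.30 and -0.08 in this order, and those in P4htm-/- cortex were -0.09, 0.01 and -0.08. No direction can be given for the gene in WT cortex. The gene is known to give membrane-bound and soluble forms, and which transcripts each probe set reports on was not determined.

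Taking the members as a list, 1 of 9 detected probe sets was 1.5-fold higher on the ipsilateral side in WT and 2 of 9 in P4htm-/- cortex, and 0 were lower in either. Over all probe sets tested, 2.12% of those in WT and 1.27% of those in P4htm-/- cortex were higher, and 0.801% and 0.186% were lower. The median difference of the members was 0.25 in WT mice and 0.13 in P4htm-/- mice, where the medians over all probe sets tested were -0.03 and -0.02. In WT 7 were above and 2 below 0, and in P4htm-/- cortex 6 were above and 3 below.

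**Figure D2:**
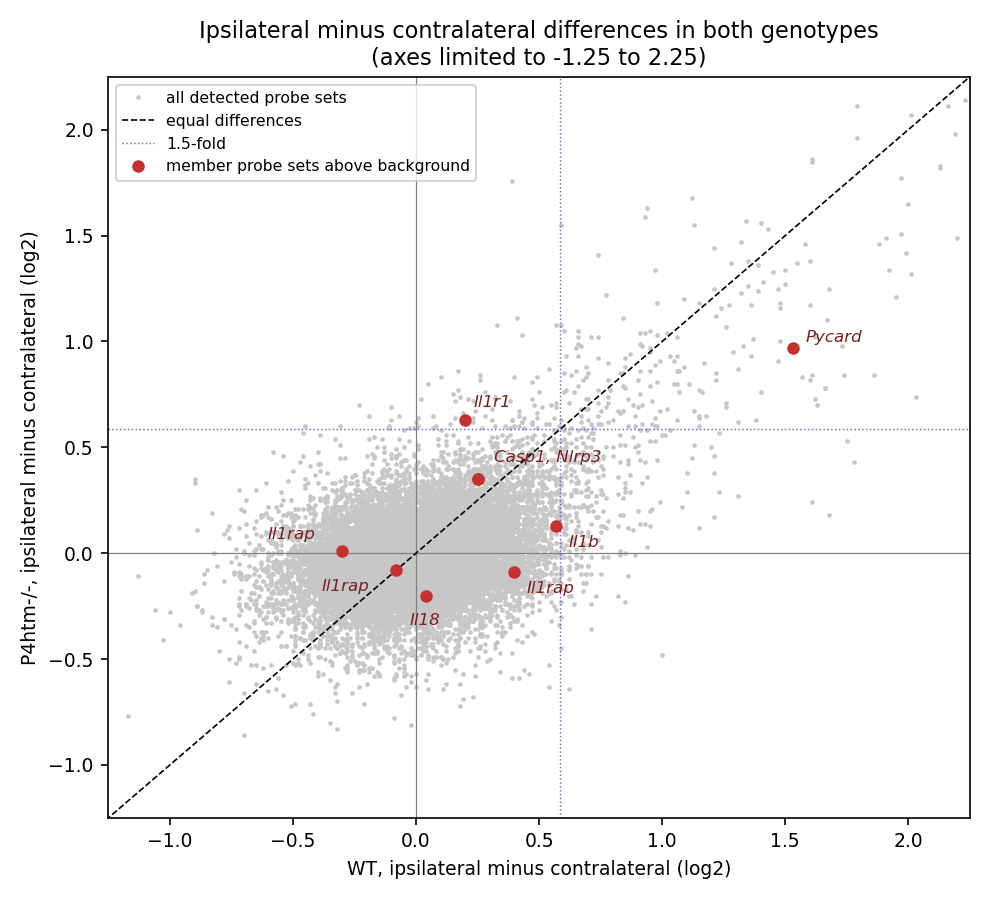
Ipsilateral minus contralateral log2 difference for WT mice on the horizontal and P4htm-/- mice on the vertical axis, for every detected probe set in grey and for the 9 detected member probe sets in red, with a dashed line for equal differences and dotted lines at 1.5-fold. *Pycard* lies past 1.5-fold on both axes, at 1.53 and 0.97. Of the other members, only *Il1r1* lies past 1.5-fold, above the horizontal dotted line at 0.63 in P4htm-/- cortex. There 247 of 23613 probe sets tested had a higher difference. *Il1b* is drawn at its measured values, of which the WT contralateral one was below background. The axes are limited, so that larger differences of other genes are not drawn.

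Between the genotypes, no member passed 1.5-fold on either side. In contralateral cortex 0 of 9 detected probe sets were higher or lower in P4htm-/- than in WT mice, where 0.362% of all probe sets tested were higher and 0.324% lower (0.686% together). The values ran from -0.22 for *Il1r1* to 0.28 for *Il1b*. The latter is at least 0.15 when the WT value is set to background. *Pycard* was at 0.00, and *Casp1* at -0.19. With that bound, 2 of the 9 differences, those of *Il1r1* and *Casp1*, were larger than 1 SD of the receptor probe sets. Both lay inside the 95th percentile of the absolute receptor differences, 0.37.

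In ipsilateral cortex 0 of 9 passed 1.5-fold, against 0.714% of all probe sets tested, 0.216% higher and 0.499% lower. *Pycard* came closest, with 7.76 in P4htm-/- against 8.32 in WT cortex, a difference of -0.56. Only 144 of 23657 probe sets tested had a lower difference. *Il1rap* was at -0.50 in probe set 1421844_at, while its other detected probe sets were at 0.20 and 0.10. *Il18* was at -0.30, *Il1r1* at 0.21, *Il1b* at -0.16, *Casp1* at -0.09 and *Nlrp3* at 0.04. The summed level of microglia markers was 0.914 times, that of monocyte and macrophage markers 0.956 times and that of neutrophil markers 1.18 times the WT value on this side. Without *Lyz2* the second ratio was 1.01, and without *S100a8* and *S100a9* the third was 1.07. Among the 14 microglia markers the median log2 difference was -0.08, with 11 below 0 and 3 above it. The lowest were *Tyrobp* at -0.56 and *Cd68* at -0.55. The ratio was 0.74 for choroid plexus markers, set by *Ttr*, and 0.821 without it. The part of these cells in the ipsilateral genotype difference of *Pycard* was not tested.

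**Figure D3:**
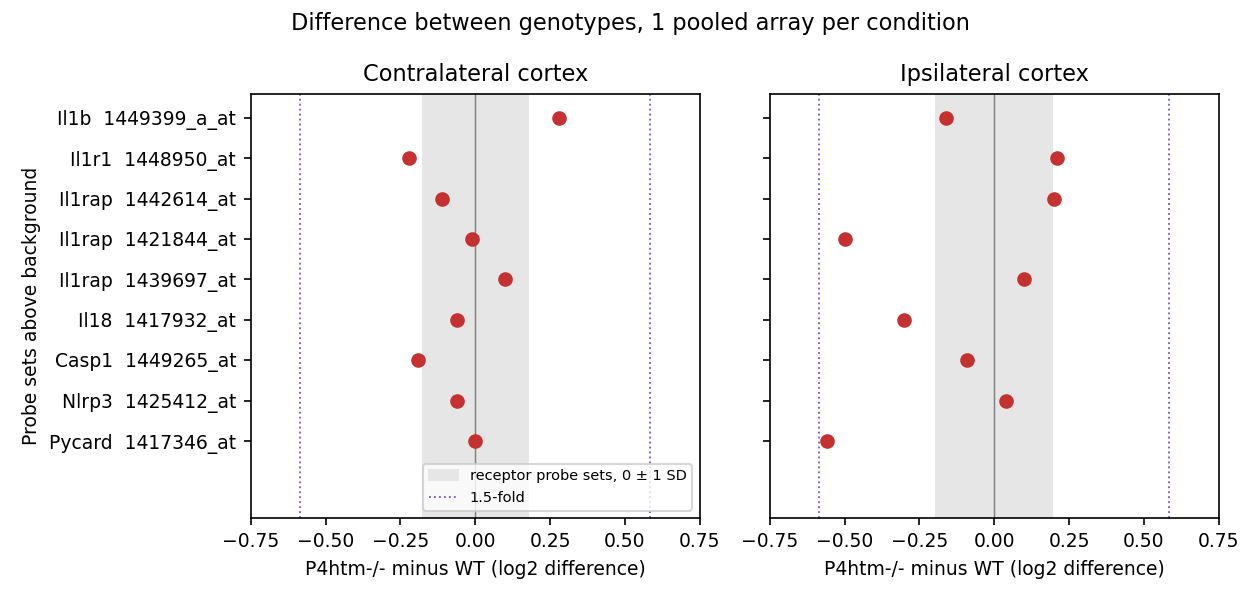
Log2 difference P4htm-/- minus WT (horizontal axis) of the 9 detected member probe sets in contralateral (left) and ipsilateral cortex (right), 1 pooled array per condition. The grey band is 1 SD of the receptor probe sets around 0 and the dotted lines mark 1.5-fold. *Pycard* sits at 0.00 on the left and at -0.56 on the right, and no probe set crosses a dotted line. *Il1b* is drawn on the left at its measured 0.28, which rests on a WT value below background.

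The ipsilateral minus contralateral difference was then compared between the genotypes. P4htm-/- minus WT, this comparison gave -0.56 for *Pycard*, -0.49 for *Il1rap* 1421844_at and, with the WT contralateral value set to background, -0.31 or below for *Il1b*, so that the P4htm-/- difference was the smaller in each of these probe sets. The other detected probe sets of *Il1rap*, 1442614_at and 1439697_at, gave 0.31 and 0.00, so no direction can be given for this gene. *Il1r1* had 0.43, the larger difference being that of P4htm-/- cortex. The SD of the same quantity over the receptor probe sets was 0.286, and 0 of 9 detected member probe sets passed 1.5-fold, where 2.49% of all probe sets did. The measured values of all 9 lay inside the 95th percentile of the absolute receptor values, 0.69. *Pycard* was among 157 genes that were past 1.5-fold higher in the injured cortex of both genotypes. Of these, 103 had a smaller difference in P4htm-/- cortex, the median was -0.10 with quartiles of -0.35 and 0.05, and 19 genes, *Pycard* included, were at -0.56 or below. A smaller difference was thus shared by most of these genes.

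Other genes of the interleukin-1 family were mostly within 1.5-fold. Of 6 further ligands 5 had a probe set naming 1 gene. Of these, 2 were detected in WT and 3 in P4htm-/- cortex, and 0 passed. The largest difference was that of *Il33*, an alarmin of glial nuclei, which read 9.67 and 10.10 in WT mice and 9.41 and 9.95 in P4htm-/- mice, a difference of 0.43 and 0.54. Of 8 receptors and regulators with such a probe set, 6 were detected in WT and 5 in P4htm-/- cortex. Among them *Il18bp*, which binds and neutralizes interleukin-18, was higher by 0.66 in WT, with 5.65 and 6.31, while P4htm-/- cortex had 5.95 and 5.89. Of 15 signalling genes with such a probe set, 14 were detected in each genotype. Among them *Myd88*, the adaptor of interleukin-1 and Toll-like receptors, was higher by 0.77 in WT, with 6.11 and 6.88, and read 6.39 and 6.65 in P4htm-/- cortex. The other detected signalling genes, among them *Irak1*, *Traf6* and *Rela*, did not pass in either genotype.

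Of 21 inflammasome sensors and effectors with a probe set naming 1 gene, 15 were detected in WT and 14 in P4htm-/- cortex. Among these, *Gbp2* and *Gbp3* were higher in both genotypes. They encode interferon-induced guanylate-binding proteins, which act on bacterial membranes and vacuoles upstream of caspase-4. *Gbp2* read 5.87 and 7.21 in WT mice and 5.58 and 7.15 in P4htm-/- mice, a difference of 1.34 and 1.57. *Gbp3* read 6.08 and 7.19 in WT mice and 6.12 and 6.92 in P4htm-/- mice, a difference of 1.11 and 0.80. *Gsdmd*, whose product forms the pores of pyroptosis, did not pass, with 5.22 and 5.35 in WT mice and 5.37 and 5.53 in P4htm-/- mice. The sensor *Aim2* was not above background, with values from 3.03 to 3.16.

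Over these 4 lists, 4 of 37 detected genes passed upwards in WT and 2 of 36 in P4htm-/- cortex, and 0 downwards. Over all genes these shares were 2.41% and 1.53%, with 0.443% and 0.165% lower. The median difference of the lists was 0.06 in WT mice and 0.01 in P4htm-/- mice, against -0.02 over all genes in both. Between the genotypes 0 of 37 contralateral and 0 of 36 ipsilateral genes passed in the probe set used, against 0.387% and 0.667% of all genes. The largest genotype differences in these probe sets were those of *Gsdme*, a gasdermin, at -0.46 in contralateral cortex and of *Il1rapl2*, a receptor of neurons related to IL1RAP, at 0.43 in ipsilateral cortex. The other detected probe set of *Gsdme* gave -0.12 contralaterally. *Ikbkg* was at -0.15 in ipsilateral cortex, while its 4 other detected probe sets gave -0.69 to -0.27.

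Downstream of the receptor, 24 genes that interleukin-1 is known to induce had a probe set naming 1 gene. Many of them also respond to other cytokines, and the list does not single out interleukin-1. In the probe set used, 9 of 19 detected genes were higher in WT and 6 of 18 in P4htm-/- cortex, and 0 were lower. Over all genes the shares were 2.41% and 1.53% higher and 0.443% and 0.165% lower. The median difference of the detected genes on the list was 0.57 in WT mice and 0.39 in P4htm-/- mice, against -0.02 over all genes in both, and includes genes with a value below background. *Socs3*, a feedback inhibitor of cytokine receptors, read 6.88 and 8.89 in WT mice and 6.64 and 8.71 in P4htm-/- mice, a difference of 2.01 and 2.07. *Lcn2*, a lipocalin of reactive astrocytes and neutrophils, read 4.89 and 6.54 in WT and was higher by at least 1.93 in P4htm-/- cortex, whose contralateral value was below background. *Mmp3*, a matrix metalloproteinase, had an ipsilateral difference of at least 1.67 in WT and of at least 1.0 in P4htm-/- mice, and the bounds for *Ccl2*, a monocyte chemoattractant, were 1.33 and 1.17.

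*Cebpd*, a transcription factor of the acute phase response, was higher by 1.5 in WT mice and 1.27 in P4htm-/- mice, where its other detected probe set gave 0.47 and 0.46. *Ch25h*, which makes an oxysterol, was higher by 1.15 and 1.18. In WT cortex *Icam1*, an adhesion molecule of endothelium, was past 1.5-fold at 0.71 and *Birc3*, an inhibitor of apoptosis, at 0.64, where P4htm-/- cortex had 0.29 and 0.43. *Icam1* read 4.94 and 5.65 in WT mice and 5.43 and 5.72 in P4htm-/- mice. Its P4htm-/- minus WT difference was 0.49 in contralateral and 0.07 in ipsilateral cortex, so its ipsilateral level was not lower in P4htm-/- mice. *Il6* was above background only in WT ipsilateral cortex, at 4.96, and higher there by at least 0.17. *Cxcl1*, a chemokine for neutrophils, was at 0.57 and 0.35 in the probe set used and did not pass, while its other detected probe sets gave 1.26 to 1.91 in WT and 0.69 to 1.49 in P4htm-/- cortex. *Ptgs2*, *Nfkbiz* and *Ptges* also did not pass in the probe set used. The other detected probe set gave 0.43 in WT and 1.03 in P4htm-/- cortex for *Ptgs2*, and 0.19 and 0.66 for *Nfkbiz*. Those of *Ptges* gave 0.6 to 0.65 in WT and 0.18 to 0.3 in P4htm-/- cortex. Whether these genes differ between genotypes was judged by the direct comparison. In contralateral cortex 0 were higher and 1 was lower, *Lcn2*, at -0.10 or below with the P4htm-/- value set to background. In ipsilateral cortex 0 were higher and 1 was lower, *Mmp3*, with 5.79 in P4htm-/- against 6.46 in WT cortex, at -0.67. On this side the other detected probe sets of *Cxcl1* gave -0.69 to -0.17, and that of *Ptgs2* gave 0.52. Over all genes 0.159% and 0.577% were lower in these comparisons, and 0.227% and 0.0899% were higher.

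**Figure D4:**
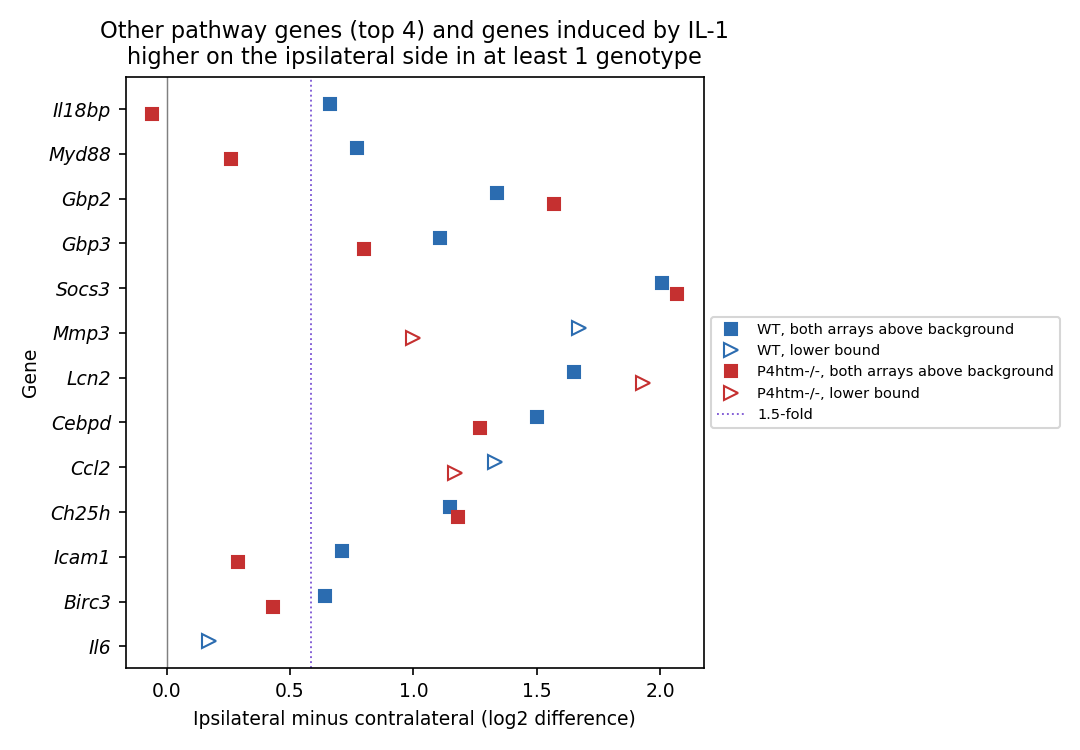
Ipsilateral minus contralateral log2 difference (horizontal axis) in WT (blue) and P4htm-/- cortex (red) of the listed genes called higher in at least 1 genotype, with squares where both arrays were above background and open triangles for lower bounds. *Socs3* has the largest measured difference in both genotypes, at 2.01 and 2.07, and *Il18bp*, *Myd88*, *Icam1* and *Birc3* lie right of the dotted 1.5-fold line in WT and left of it in P4htm-/- cortex. *Il6* has no point for P4htm-/- cortex, where it was not above background, and its WT bound of 0.17 lies left of the line although its measured values passed 1.5-fold.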

How the data were processed

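Cortical RNA of 4 mice per condition was pooled and hybridized to 1 array for each of 4 conditions, and samples were grouped by their titles. Per probe set, the authors deposited a log2 expression value. The submitters' processing notes name RMA, and the methods GenePattern, both without a version. Since RMA gives all arrays the same distribution, it would remove a difference common to all genes. The deposited values carry 2 decimals, and 0 columns were unused.

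Of 45101 probe sets, 34958 name 1 gene, 932 name several and 9211 have no name in the annotation used. The symbols of 34754 were updated through Entrez IDs in a RefSeq table (GRCm38.p6), which also gave start windows. In lists, each gene was taken from the 1 of its probe sets whose mean was highest. Values not above background were set to it for bounds. Median centring, cyclic loess (limma 3.58.1, R 4.3.3), other probe set choices, detection limits and folds were alternatives. Counting was tested on simulated data. Python 3.11.15, numpy 2.4.6 and pandas 2.3.3 were used.

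The members and lists were chosen with earlier results of these data known. Beyond the members, genes were named that passed 1.5-fold in a list, or had the largest difference in it, were the nearest in pattern, or were markers that led a list or were below background. *Irak1*, *Traf6*, *Rela*, *Ikbkg*, *Gsdmd*, *Aim2*, *Cxcl1*, *Ptgs2*, *Nfkbiz*, *Ptges*, *P2ry12*, *Tmem119*, *Tyrobp*, *Ttr*, *S100a9*, *Lyz2*, *Ltf* and *Csf3r* were named after their values were seen.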

Additional observations from a re-analysis of the deposited data

Results flagged for a closer look

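*Il1r1* differed between the genotypes in opposite directions on the 2 sides, by -0.22 (P4htm-/- minus WT) in contralateral and 0.21 in ipsilateral cortex. Both values are larger than 1 SD of the receptor probe sets, 0.175 and 0.194, and both are under 1.5-fold. Both also lie inside the 95th percentile of the absolute receptor differences, 0.37 and 0.40. With 1 array per condition the difference between the sides was not tested.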

How the results depend on the processing

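No paired analysis was possible because each condition has 1 pooled array with no replicate, and for the same reason no array could be left out. Counts were taken as changed when they moved by more than 1.5 times, and single differences when they moved by more than 1 SD of the receptor probe sets. Member probe sets higher on the ipsilateral side numbered 1 in WT mice and 2 in P4htm-/- mice. With the mean of a gene's probe sets both counts were 0, with undetected probe sets lowering the differences of *Pycard* and *Il1r1*. Without a detection filter the WT count was 2. At a threshold of 0.322 on the log2 scale the counts were 3 and 4, and at 2-fold the P4htm-/- count was 0. In P4htm-/- minus WT ipsilateral cortex 2 were lower at the threshold of 0.322, where 0 were at 1.5-fold. For the difference between genotypes in the ipsilateral difference, the count of 0 became 1 without a detection filter and 4 at the threshold of 0.322. Shares over all probe sets were taken only at 1.5-fold with the detection filter. Counts at 0.322, at 2-fold or without the filter therefore cannot be judged against all probe sets. At 2-fold the other pathway genes that were higher numbered 2 in WT mice and 1 in P4htm-/- mice, and the genes induced by interleukin-1 that were lower numbered 0 in P4htm-/- minus WT contralateral and 0 in ipsilateral cortex. Of 276 recomputed single differences 13 moved, each with another choice of probe set and 0 of them under median centring or cyclic loess. Of the called ones, 0 changed sign. Another detection limit, or none, leaves a single difference as it is, so part of the 276 could not move. The same holds for another choice of probe set in genes with 1 probe set. Values near 4.79 are limited by background, which touches *Il1b* and *Nlrp3* most. With background at the 99th percentile, 6.59, *Il1b*, *Casp1* and *Nlrp3* were not detected.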
